A study of Mus musculus with 8 samples.

Results

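Intestine and bladder were compared directly, gene by gene, with the 3 intestine and the 3 bladder libraries of a mouse study of non-vascular smooth muscle cells. These are 6 of the 8 libraries of the study, and the 2 lung libraries were left out of the fit. The study asked how such cells differ from tissue to tissue, and each library is bulk RNA sequencing of cells that a fluorescence sorter had taken from 1 tissue. The groups follow the tissue and column labels. Both groups carried the same genotype, Cspg4-Dre/Acta2-CreERT/R26-GFP. It joins a Dre recombinase driven by Cspg4, the gene of the NG2 proteoglycan of mural cells, a tamoxifen-activated Cre driven by Acta2, the gene of smooth muscle actin, and GFP as the reporter (R26). Both groups also received tamoxifen into the peritoneum, at 0.75 mg for each 10 g of body weight, on 3 days, dissolved in corn oil at 20 mg/mL. RNA was taken off columns after DNase treatment, and at most 10 ng entered a SMART-Seq v4 library. As a model the fractions depend on where these promoters act, and Acta2 and Cspg4 are also known from mural cells of vessels. No untreated or unsorted tissue was compared. The labels used here name no mouse, sex, age or gut segment for a library. The p-values therefore measure only how much the libraries of a tissue vary, and that variation may be technical. In such bulk samples fewer cells of a type and less RNA per cell cannot be told apart.

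Visceral smooth muscle lines hollow organs and contracts when calcium and calmodulin switch on myosin light chain kinase, so that smooth muscle myosin pulls on actin filaments anchored at dense plaques. In the bladder it forms the detrusor, which relaxes during filling and contracts at voiding under acetylcholine and ATP. In the intestine it forms layers that are paced by interstitial cells of Cajal and steered by enteric neurons, with nitric oxide and vasoactive intestinal peptide as relaxing transmitters. Position along the body is recorded in such cells by HOX genes, whose low-numbered groups are used towards the head and high-numbered groups towards the tail.

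The deposited values are whole numbers, and they are called normalised read counts here. The libraries held 9.72 to 10.95 M reads (megareads) in bladder and 12.02 to 13.19 M in intestine, as rebuilt from the spacing of the deposited values, and 19206 to 19341 genes were above 0 in bladder against 20196 to 20357 in intestine. Of the 21649 genes measured, 16766 had 3 or more of the 6 libraries at 10 or above and were tested with limma on log2(value + 1). At a Benjamini-Hochberg adjusted p under 0.05, 5371 genes were higher in intestine, 32.0% of the genes tested, and 4580 were lower, 27.3%. Differences of at least 4-fold were less even, with 2193 genes higher (13.1%) and 579 lower (3.45%). Over all genes tested the median log2 difference was 0.05 (SD 1.90), and 5054 of the calls, 50.8%, were under 2-fold. The lists described next are to be read against these shares and this median. Throughout, higher and lower mean in intestine against bladder at that threshold, and ± after a log2 difference is its standard error. The direction of small differences depends on scaling. Higher genes made up 54.0% of the calls with the deposited scaling, 80.8% with that scaling undone, 43.2% after quantile normalization and 43.6% after scaling on genes of low read density, and the median of all genes moved from 0.05 to 0.44, -0.12 and -0.10. The 315 genes with at least 1 read per nucleotide of exon had a median log2 difference of -0.40 (SD 0.45), and the value given to 1 read was lower in the intestine libraries by the same -0.40. A small negative difference of a very abundant gene therefore stands beside this figure, and the part that read density had in it was not tested.

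**Figure D1:**
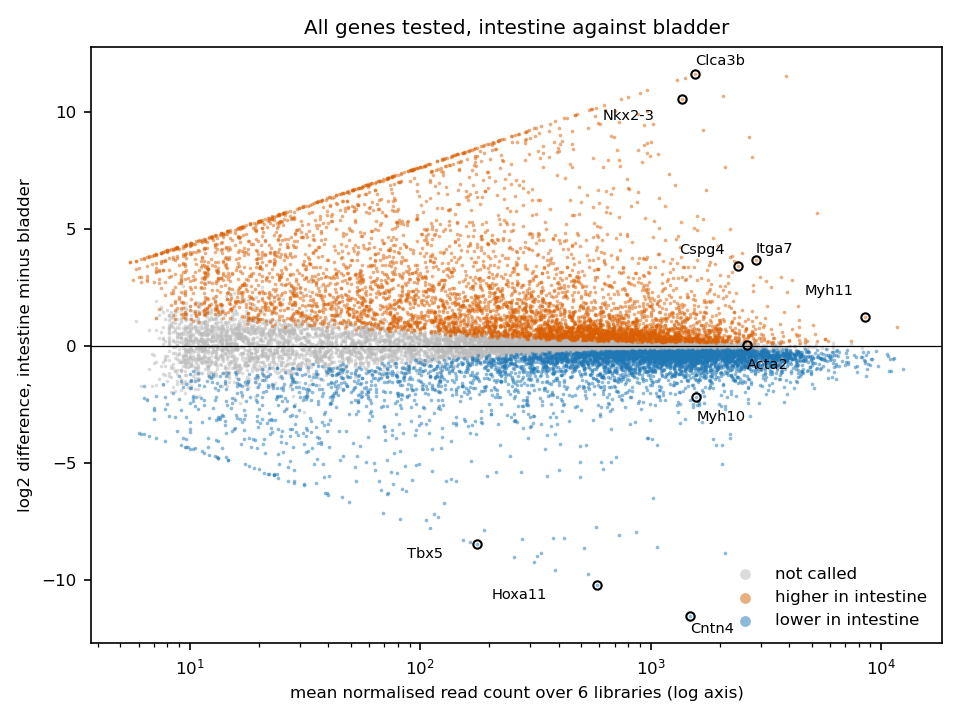
Each point is 1 of the 16766 genes tested, with its mean normalised read count over the 6 libraries on a log axis and its log2 difference, intestine minus bladder, on the other axis. Orange points were higher and blue points lower at an adjusted p under 0.05, circles mark named genes, and the large differences lie mostly above 0, where 2193 genes passed 4-fold against 579 below.

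The genes whose promoters drive the recombinases were not alike in the tissues. Acta2 had normalised read counts of 2933, 2549 and 2323 in bladder and 2876, 2454 and 2600 in intestine. The ranges overlapped and the difference was not called (log2 difference 0.03 ± 0.09 (SE), adjusted p = 0.821, 95% interval -0.19 to 0.24), although it was called higher with the scaling undone, at log2 0.42, and after quantile normalization, at 0.30. Cspg4 stood at 417, 387 and 433 in bladder and 4370, 4617 and 4220 in intestine. All intestine libraries lay about an order of magnitude above all bladder libraries (log2 difference 3.41 ± 0.07 (SE), adjusted p = 4.17e-08). Myh11, the myosin heavy chain that defines smooth muscle, had counts of 6099, 4423 and 4601 in bladder and 12038, 11371 and 12454 in intestine, and the groups did not overlap (log2 difference 1.26 ± 0.11 (SE), adjusted p = 1.96e-05). Every library thus held transcripts of Acta2, Cspg4 and Myh11, at levels that differed between the tissues for Cspg4 and Myh11. Their presence does not give the share of smooth muscle cells in a library.

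Transcripts of cells other than smooth muscle were present in both fractions and differed between them. Values are given as the summed counts of a marker list in ppm (counts of the list for each megacount of the library) of the library total, lowest to highest library. Of the markers of absorptive and stem epithelium of the intestine, 24 of 26 tested were higher in intestine, and their sum was 569 to 701 in bladder and 2702 to 2937 in intestine. For goblet, Paneth, tuft and enteroendocrine cells 23 of 26 were higher (159.7 to 180.3 against 1899.6 to 2114), and 10 listed genes, Fcgbp, Tff3 and Clca3b among them, were at 0 in every bladder library. All 11 stomach gland markers tested were higher (61 to 119.9 against 1487 to 1562). Enteric neuron markers were higher for 25 of 26 (237 to 252 against 1176 to 1258). The glial list split, with 12 of 17 higher, 4 lower, while its sum was lower in every intestine library (1008 to 1069 against 923 to 985). In bladder that sum came mostly from Pmp22, Egr2 and Gpm6b, which were lower. Sox10, S100b and Erbb3 were among the glial genes that were higher. Interstitial cell of Cajal markers were higher for 5 of 11, among them Kit. Urothelial markers went the other way, with 19 of 23 lower and sums of 1244 to 1737 in bladder against 453 to 483 in intestine. In intestine that sum came mostly from Elf3, Cldn4 and Foxa1, which were higher.

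Markers of vessels and blood cells differed as well. Vascular smooth muscle and pericyte markers were higher for 19 of 22 (1864 to 2018 against 5307 to 5721 ppm), although the label of both fractions is non-vascular. Blood endothelial markers were higher for 24 of 25 (866 to 1151 against 2802 to 2996) and lymphatic ones for 7 of 11. Fibroblast and PDGFRA cell markers summed to 11332 to 12362 in bladder and 7880 to 8550 in intestine, with 24 of 28 lower, of which 12 were genes of at least 1 read per nucleotide. Of the macrophage and monocyte markers none was higher and 20 of 24 were lower (769 to 1378 against 272 to 284). Every one of these 24 markers was highest, among the bladder libraries, in bladder replicate 1, with a median ratio of 2.10 to the mean of the other bladder libraries. Without that replicate the list was 1 higher and 18 lower. Lymphocyte markers, on a list that also holds genes of other leukocytes, were higher for 18 of 22 (355 to 411 against 878 to 942). Most of the bladder sum came from Xbp1, which was lower. The mesothelial list was mixed, 5 higher and 9 lower of 19, with overlapping sums. The MHC class II list was mixed too, 3 higher and 4 lower of 10, but its sums did not overlap (545 to 803 against 443 to 490). Cardiac and skeletal muscle genes were mixed, 3 higher and 5 lower of 11, with sums that were lower in every intestine library (152 to 206 against 82.8 to 83.8). The 5 erythroid genes tested were all higher (4.75 to 7.91 against 45.6 to 62.7). The part of these cells in the differences described next was not tested.

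**Figure D2:**
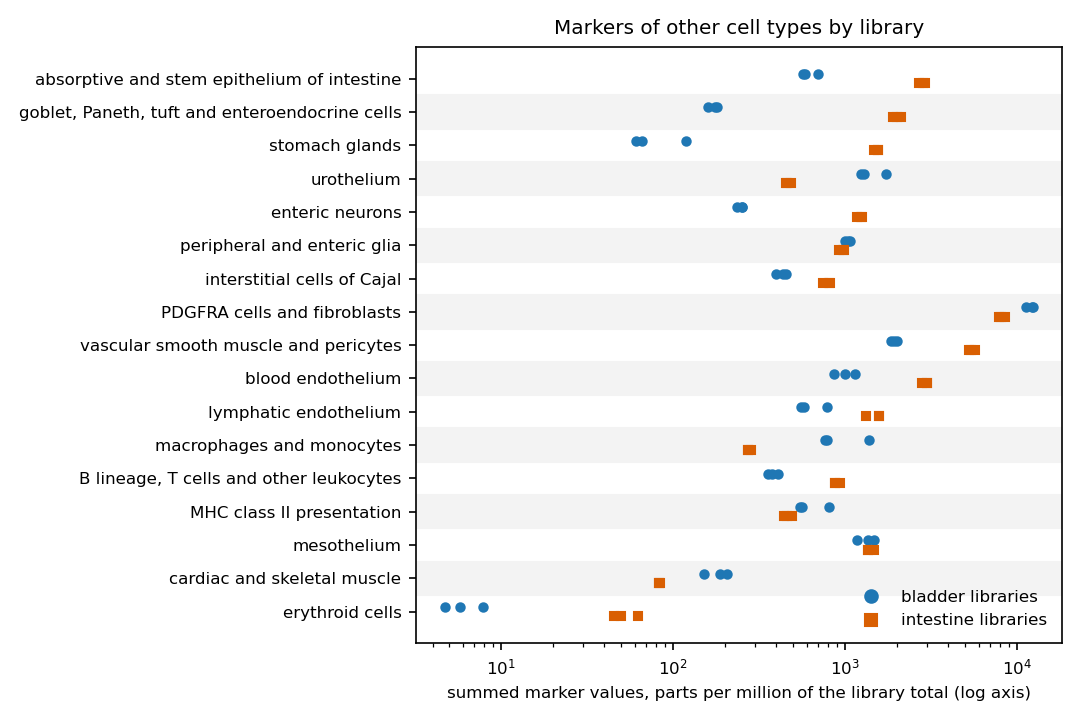
Each row is 1 marker list, and each symbol is 1 library, placed by the summed values of the list in ppm of the library total on a log axis, circles for bladder and squares for intestine. The gut epithelial, stomach, neuronal, mural and endothelial lists lie to the right in intestine. The urothelial, fibroblast, macrophage, MHC class II and cardiac and skeletal muscle lists and, by little, the glial list lie to the right in bladder. The mesothelial list overlaps.

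Most thin filament genes differed by less than 4-fold. Of 24 genes tested, 5 were higher and 13 lower (median log2 difference -0.19), against a median of 0.05 for all genes, and 6 of them were genes of at least 1 read per nucleotide. With the deposited scaling undone the counts turned to 12 higher and 4 lower, so the list as a whole has no direction that holds under every scaling. Lmod1, the leiomodin that nucleates actin filaments, was at 363, 268 and 308 in bladder and 2610, 2288 and 2415 in intestine (log2 difference 2.97 ± 0.11 (SE), adjusted p = 2.56e-07). Its intestine libraries were all more than 6 times its highest bladder library. Of the striated isoforms Acta1, skeletal actin, was at 1275, 781 and 981 in bladder and 237, 253 and 222 in intestine (log2 difference -2.06 ± 0.17 (SE), adjusted p = 1.16e-05), and Tnnt3, fast skeletal troponin T, at 171, 140 and 156 in bladder and 4, 17 and 18 in intestine (log2 difference -3.71 ± 0.51 (SE), adjusted p = 0.00029). Both were lower, while Actc1, cardiac actin, was not called (0.39 ± 0.41). Tropomyosin Tpm1 was not called (log2 difference -0.09 ± 0.06 (SE), adjusted p = 0.228). Actg2, the enteric actin that is the main actin of visceral muscle, and Cnn1, calponin, were added after their values were seen, and stood at 2875, 2519 and 2412 in bladder and 2256, 2125 and 2335 in intestine for the first and at 3156, 2777 and 2689 in bladder and 2505, 2324 and 2551 in intestine for the second. Their log2 differences of -0.21 ± 0.07 and -0.22 ± 0.07 were smaller than the -0.40 of the densest genes, and turned to 0.18 and 0.17 with the scaling undone and to 0.032 and 0.040 after quantile normalization. Both calls were lost without bladder replicate 1 (adjusted p = 0.11 and 0.0817), intestine replicate 1 (0.0803 and 0.0564) or intestine replicate 2 (0.122 and 0.0964), and that of Actg2 also without bladder replicate 2 (0.0553) or intestine replicate 3 (0.0546).

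Myosin and the enzymes that phosphorylate it changed more. Of 24 genes tested, 9 were higher and 6 lower (median log2 difference 0.17), a majority that became 8 higher and 8 lower with scaling on low-density genes. The non-muscle heavy chains split. Myh14 was at 62, 63 and 115 in bladder and 1023, 1027 and 955 in intestine (log2 difference 3.69 ± 0.23 (SE), adjusted p = 2.66e-06), while Myh10 stood at 2543, 2464 and 2771 in bladder and 510, 658 and 548 in intestine (log2 difference -2.19 ± 0.10 (SE), adjusted p = 5.39e-07). Neither pair of groups overlapped, so 1 non-muscle myosin was an order of magnitude higher in intestine and another was over 4-fold higher in bladder. The kinase and the phosphatase that act on the light chain were both higher in intestine. Mylk, the activating kinase, had counts of 2174, 1802 and 2107 in bladder and 5765, 5292 and 5653 in intestine (log2 difference 1.46 ± 0.08 (SE), adjusted p = 1.03e-06). Ppp1r12b and Ppp1r12a, which encode targeting subunits of the myosin phosphatase, were higher with a log2 difference of 2.50 ± 0.10 and 1.72 ± 0.10 (adjusted p = 3.39e-07 and 1.77e-06). Phosphatase inhibitors of the CPI-17 family had 3 different outcomes. Ppp1r14a, which is CPI-17 itself, was not called, at 934, 944 and 945 in bladder and 997, 838 and 952 in intestine, Ppp1r14c was higher (log2 difference 3.86 ± 0.34 (SE), adjusted p = 1.89e-05), and Ppp1r14b was lower (log2 difference -0.61 ± 0.08 (SE), adjusted p = 0.000207), a call that was lost with the scaling undone (adjusted p = 0.143). Ppp1r14d, at 1, 0 and 0 in bladder and 101, 139 and 140 in intestine, was higher too (log2 difference 6.65 ± 0.42 (SE), adjusted p = 2.95e-06). The vascular smooth muscle and pericyte markers, which share this machinery, were higher in the same libraries (1864 to 2018 against 5307 to 5721 ppm), and their part in the contractile and channel genes was not tested.

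**Figure D3:**
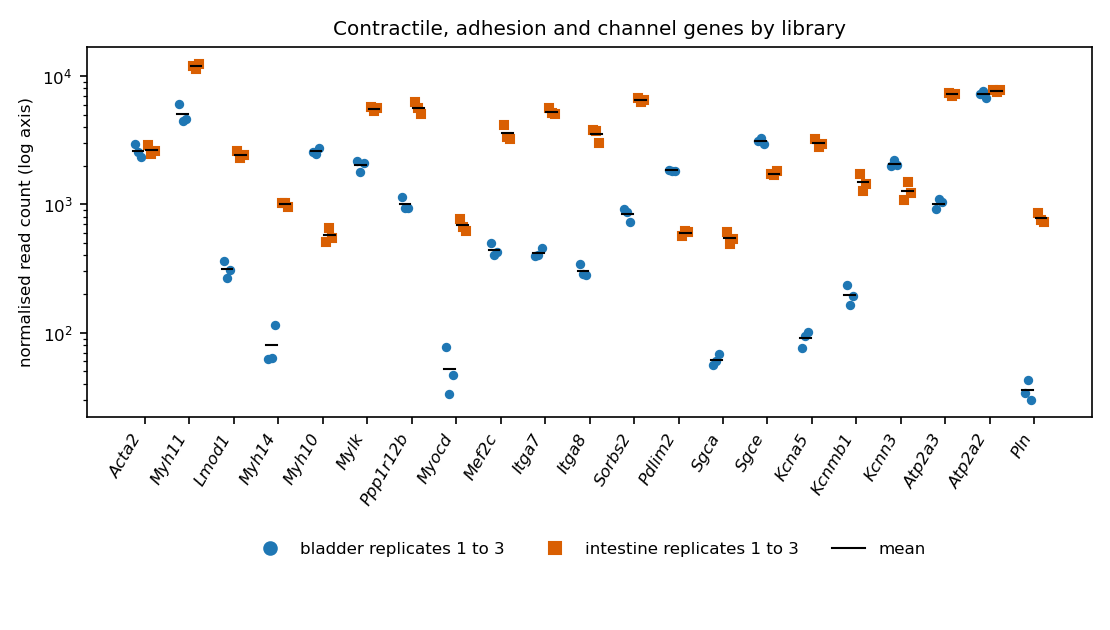
Normalised read counts on a log axis for 21 contractile, adhesion and channel genes, with 1 symbol per library (circles bladder, squares intestine) and a bar for the mean of each tissue. The 3 libraries of a tissue lie close together, Acta2 and Atp2a2 are level, and Myh10, Pdlim2, Sgce and Kcnn3 are the genes of the plot with higher values in bladder.

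Among the regulators that switch contractile genes on, myocardin and MEF2C stood out. Of 19 genes tested, 8 were higher and 5 lower (median log2 difference 0.24). With scaling on low-density genes this became 6 higher and 8 lower. Myocd, the coactivator that turns serum response factor towards smooth muscle genes, was at 77, 33 and 47 in bladder and 775, 670 and 620 in intestine (log2 difference 3.77 ± 0.29 (SE), adjusted p = 7.93e-06). Mef2c stood at 498, 400 and 422 in bladder and 4153, 3366 and 3206 in intestine (log2 difference 3.02 ± 0.12 (SE), adjusted p = 2.68e-07). The lowest intestine library exceeded the highest bladder library 8-fold for Myocd and over 6-fold for Mef2c. Class IIa histone deacetylases, which repress MEF2, split, with Hdac5 higher with a log2 difference of 1.00 ± 0.07 (adjusted p = 4.69e-06) and Hdac4 lower with a log2 difference of -1.15 ± 0.08 (adjusted p = 6.25e-06). The LIM proteins Fhl1 and Fhl2 differed by less. Fhl2 was higher with a log2 difference of 0.26 ± 0.07 (adjusted p = 0.0142), a call that was lost with scaling on low-density genes (adjusted p = 0.247), and Fhl1 was lower with a log2 difference of -0.36 ± 0.06 (adjusted p = 0.000706), a sign that turned to 0.035 with the scaling undone.

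Serum response factor binds the CArG box, so the promoters of the muscle lists were searched for its letters, on both strands, in RefSeq windows of the GRCm38.p6 build that run from 250 bases before to 50 after each start. The box was found in 17 of 330 windows of muscle genes (5.15%), against 535 of 32851 windows of all genes (1.63%). These windows belong to 15 of the 241 muscle genes that matched, of which 5 were higher, 5 lower, 4 not called and 1 not tested. Boxes were thus found beside genes of every outcome. The 5 windows printed, 1 per gene, were chosen to show this, with values already seen. Ldb3 and Trpc6, genes of a Z-disc protein and a cation channel, were higher (log2 differences 3.75 ± 0.22 and 2.48 ± 0.31), Fhl2 was higher by little, a call lost with scaling on low-density genes, and Fhl1 and Cnn2, which encodes calponin 2, were lower by little, a sign that turned for both with the scaling undone (for Cnn2 -0.17 ± 0.06 as deposited and 0.22 with the scaling undone). The call of Cnn2 was also lost without bladder replicate 1 or intestine replicate 2 (adjusted p = 0.0907 and 0.0803). Each run reads 5′ to 3′ on the strand of its gene, with the CArG box in capitals. The window of Ldb3 is chr14:34588632-34588931 (minus strand), of Trpc6 chr9:8543892-8544191 (plus), of Fhl2 chr1:43196712-43197011 (minus), of Fhl1 chrX:56779433-56779732 (plus) and of Cnn2 chr10:79988350-79988649 (plus).
Ldb3: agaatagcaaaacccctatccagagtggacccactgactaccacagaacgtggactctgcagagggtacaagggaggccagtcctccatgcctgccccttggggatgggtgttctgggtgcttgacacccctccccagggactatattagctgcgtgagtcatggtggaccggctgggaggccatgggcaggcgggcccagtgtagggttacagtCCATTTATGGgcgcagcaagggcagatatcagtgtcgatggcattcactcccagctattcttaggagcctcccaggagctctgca
Trpc6: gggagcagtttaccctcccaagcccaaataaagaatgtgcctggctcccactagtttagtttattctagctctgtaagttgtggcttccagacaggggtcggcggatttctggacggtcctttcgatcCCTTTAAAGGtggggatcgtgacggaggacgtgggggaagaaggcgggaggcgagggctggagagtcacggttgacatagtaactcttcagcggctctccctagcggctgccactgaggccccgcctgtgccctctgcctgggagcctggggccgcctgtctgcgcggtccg
Fhl2: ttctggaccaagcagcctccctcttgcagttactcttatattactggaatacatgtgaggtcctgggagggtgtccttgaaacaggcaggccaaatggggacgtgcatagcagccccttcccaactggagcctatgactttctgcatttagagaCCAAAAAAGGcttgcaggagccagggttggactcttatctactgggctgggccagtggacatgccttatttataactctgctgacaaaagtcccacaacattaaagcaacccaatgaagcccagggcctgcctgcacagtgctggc
Fhl1: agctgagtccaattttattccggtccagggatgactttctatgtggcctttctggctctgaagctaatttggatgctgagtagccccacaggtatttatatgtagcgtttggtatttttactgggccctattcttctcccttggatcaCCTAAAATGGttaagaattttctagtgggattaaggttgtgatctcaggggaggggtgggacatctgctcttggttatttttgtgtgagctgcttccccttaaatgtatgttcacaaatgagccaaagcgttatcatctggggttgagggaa
Cnn2: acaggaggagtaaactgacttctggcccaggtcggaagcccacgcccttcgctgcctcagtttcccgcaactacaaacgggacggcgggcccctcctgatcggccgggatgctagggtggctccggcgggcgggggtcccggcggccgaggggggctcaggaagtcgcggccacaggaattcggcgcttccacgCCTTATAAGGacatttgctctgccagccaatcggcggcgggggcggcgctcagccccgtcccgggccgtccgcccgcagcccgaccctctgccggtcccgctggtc
The first base of the box lies 35 bases before the start in Ldb3, 122 in Trpc6, 96 in Fhl2, 102 in Fhl1 and 56 in Cnn2. A match is a description of these letters and not a bound site.

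The integrin alpha chains Itga7 and Itga8 were higher in intestine. In the list of dense plaque, PDZ-LIM and intermediate filament genes, of 40 genes tested, 19 were higher and 8 lower (median log2 difference 0.24), and 7 were higher by at least 4-fold and none lower by as much. Itga7, the laminin-binding alpha chain of muscle (mm39 chr10:128769645-128794155), had counts of 393, 403 and 460 in bladder and 5660, 5111 and 5101 in intestine (log2 difference 3.66 ± 0.08 (SE), adjusted p = 4.17e-08). Itga8, which pairs with the beta 1 chain to bind RGD proteins, was at 344, 289 and 281 in bladder and 3817, 3751 and 2992 in intestine (log2 difference 3.52 ± 0.12 (SE), adjusted p = 1.38e-07). Sorbs2, an adaptor of actin at adhesion sites, stood at 912, 877 and 734 in bladder and 6765, 6231 and 6540 in intestine (log2 difference 2.96 ± 0.08 (SE), adjusted p = 7.27e-08). For all 3 the groups were far apart, and Actn1, alpha-actinin, was higher by less (log2 difference 1.72 ± 0.09 (SE), adjusted p = 9.86e-07). Itgb1, the shared beta chain, was lower (log2 difference -0.29 ± 0.06), a sign that turned to 0.11 with the scaling undone and to 0.12 after quantile normalization. Genes of the same list with clearly higher values in bladder were Pdlim2, at 1852, 1833 and 1834 in bladder and 570, 624 and 608 in intestine (log2 difference -1.61 ± 0.06 (SE), adjusted p = 2.86e-07), and Sorbs3, vinexin (log2 difference -1.06 ± 0.06 (SE), adjusted p = 1.26e-06).

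The dystrophin complex links the cytoskeleton to laminin through dystroglycan and sarcoglycans. Of the 27 genes tested, 13 were higher and 11 lower (median log2 difference -0.16), so that the median and the majority differ in sign, and the split was 12 higher and 12 lower with scaling on low-density genes. Sgca, the alpha-sarcoglycan typical of striated muscle, had counts of 56, 60 and 68 in bladder and 614, 494 and 538 in intestine (log2 difference 3.14 ± 0.16 (SE), adjusted p = 9.97e-07). Sgce, its close relative, was at 3104, 3278 and 2955 in bladder and 1719, 1690 and 1805 in intestine (log2 difference -0.84 ± 0.06 (SE), adjusted p = 4.58e-06). The pair thus moved in opposite directions without overlap. Sgcb and Sgcd were lower (log2 differences -0.45 ± 0.07 and -0.56 ± 0.15), calls that were lost with the scaling undone (adjusted p = 0.581 and 0.375). In caveolae, Cav3, the muscle caveolin, was higher (log2 difference 2.62 ± 0.33 (SE), adjusted p = 0.000167) as was Cav2 (log2 difference 0.77 ± 0.07 (SE), adjusted p = 1.94e-05), and Cav1 was lower (log2 difference -0.33 ± 0.07), which turned to 0.064 with the scaling undone and to 0.030 after quantile normalization. Junctophilins, which hold the sarcoplasmic reticulum at the membrane, were higher, Jph2 by log2 1.41 ± 0.09 and Jph3 from 3, 4 and 2 to 149, 151 and 161.

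Potassium channels, the muscle list with the most genes tested, also had the largest number past 4-fold. By share they did not stand apart. Of 14 connexin and pannexin genes 6 were higher and 3 lower by at least 4-fold, and of 38 TRP, Piezo, chloride and sodium channel genes 16 and 2. Of 56 genes tested, 32 were higher and 11 lower (median log2 difference 1.46), and 26 were higher and 1 lower by at least 4-fold. Kcna5, a delayed rectifier, stood at 76, 95 and 101 in bladder and 3206, 2810 and 2938 in intestine (log2 difference 5.03 ± 0.12 (SE), adjusted p = 4.79e-08), and Kcnab1, a beta subunit of such channels, 204, 159 and 202 in bladder and 2582, 2010 and 2095 in intestine (log2 difference 3.56 ± 0.13 (SE), adjusted p = 2.31e-07). Kcnmb1, the beta subunit of the large calcium-activated channel of smooth muscle, had counts of 236, 164 and 192 in bladder and 1738, 1270 and 1444 in intestine (log2 difference 2.91 ± 0.16 (SE), adjusted p = 1.28e-06). Its pore gene Kcnma1, added after its values were seen, was higher (log2 difference 2.16 ± 0.17). Calcium-activated channels of smaller conductance split, with Kcnn4 at 171, 119 and 115 in bladder and 1762, 1799 and 1776 in intestine (log2 difference 3.73 ± 0.15 (SE), adjusted p = 3.09e-07) and Kcnn3, which is also a marker of PDGFRA cells, at 1983, 2225 and 2028 in bladder and 1076, 1502 and 1233 in intestine (log2 difference -0.72 ± 0.11 (SE), adjusted p = 0.000641). The call of Kcnn3 was lost with the scaling undone (adjusted p = 0.0718). Kcnn1 was lower as well (log2 difference -1.47 ± 0.23 (SE), adjusted p = 0.00064). In the KCNQ family Kcnq1 was higher (log2 difference 6.15 ± 0.26) and Kcnq5 was lower (log2 difference -2.48 ± 0.63). Kcnq1, Kcne3 (6.63 ± 0.27) and Kcnn4 are also known from intestinal epithelium, whose markers were higher in the same libraries. Abcc9, a regulatory subunit of ATP-sensitive channels, was not called, at 1161, 1517 and 1194 in bladder and 1221, 1643 and 1338 in intestine (log2 difference 0.12 ± 0.13 (SE), adjusted p = 0.472).

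Calcium pumps of the sarcoplasmic reticulum differed by isoform. Of 41 genes tested, 21 were higher and 9 lower (median log2 difference 0.62), 13 were higher by at least 4-fold and none lower by as much. Atp2a2, the SERCA2 pump, was not called, at 7290, 7690 and 6714 in bladder and 7774, 7478 and 7728 in intestine (95% interval of the log2 difference -0.04 to 0.21). Atp2a3, SERCA3, was at 913, 1098 and 1035 in bladder and 7440, 6998 and 7228 in intestine (log2 difference 2.83 ± 0.07 (SE), adjusted p = 5.6e-08). On the scale of reads per kilobase of exon, averaged over the libraries of a tissue and read within it, Atp2a3 had 160.4 against 988 for Atp2a2 in bladder, and 1496 against 1378 in intestine. Pln, phospholamban, which slows the pump, stood at 34, 43 and 30 in bladder and 856, 749 and 725 in intestine (log2 difference 4.42 ± 0.19 (SE), adjusted p = 3.9e-07). Atp2a2 was thus alike in the tissues under the deposited scaling while Atp2a3 and the inhibitor gene Pln were higher in every intestine library. With that scaling undone Atp2a2 was called higher. In intestine both pump genes had more than 1 read per nucleotide of exon, and the part of read density in their order was not tested. Casq2, the calcium store protein calsequestrin, was higher (log2 difference 2.91 ± 0.22 (SE), adjusted p = 8.88e-06), and so was Itpr1, the inositol trisphosphate receptor (log2 difference 1.37 ± 0.07 (SE), adjusted p = 7.93e-07). Irag1, which couples that receptor to cGMP kinase, had counts of 487, 312 and 375 in bladder and 3320, 2937 and 2455 in intestine (log2 difference 2.90 ± 0.17 (SE), adjusted p = 1.64e-06). Of the entry channels Cacna1h, of the T type, was at 52, 51 and 73 in bladder and 1056, 1094 and 1197 in intestine (log2 difference 4.24 ± 0.17 (SE), adjusted p = 3e-07). Cacna1c, the main L-type channel, added after its values were seen, was higher (log2 difference 1.70 ± 0.17).

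Other channels were more often higher than lower and connexins went both ways. Of 38 genes tested, 23 were higher and 10 lower (median log2 difference 1.01). Ano1, the calcium-activated chloride channel of interstitial cells of Cajal, stood at 573, 497 and 609 in bladder and 3570, 3076 and 2571 in intestine (log2 difference 2.45 ± 0.12 (SE), adjusted p = 9e-07). Pkd2, polycystin 2, had counts of 6874, 7205 and 6618 in bladder and 2816, 3251 and 2955 in intestine (log2 difference -1.20 ± 0.06 (SE), adjusted p = 1.11e-06). Cftr, an epithelial chloride channel, rose from 9, 3 and 11 to 1857, 1878 and 1765. Among 14 connexin and pannexin genes 7 were higher and 5 lower. Gja1, connexin 43, was not called (log2 difference 0.11 ± 0.07 (SE), adjusted p = 0.196), Gjc1, connexin 45 of smooth muscle, was higher (log2 difference 0.92 ± 0.08 (SE), adjusted p = 1.94e-05), and Gja4 and Gja5 of vessels were higher (log2 differences 2.92 ± 0.20 and 3.12 ± 0.24). Gjb5 was at 505, 494 and 392 in bladder and 63, 45 and 45 in intestine (log2 difference -3.17 ± 0.21 (SE), adjusted p = 3.36e-06).

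Receptors for transmitters were more often higher in intestine. Of the 27 muscarinic, purinergic and adrenergic receptors tested 15 were higher and 5 lower, with 11 higher by at least 4-fold. P2rx1, the ATP-gated channel of visceral muscle, stood at 808, 473 and 572 in bladder and 3766, 3455 and 3545 in intestine (log2 difference 2.57 ± 0.17 (SE), adjusted p = 3.29e-06). P2rx2 had counts of 15, 5 and 19 in bladder and 398, 434 and 560 in intestine (log2 difference 5.21 ± 0.44 (SE), adjusted p = 1.52e-05). P2rx4 and P2rx7 went the other way, P2rx4 at 2253, 2384 and 2334 in bladder and 1246, 1184 and 1068 in intestine (adjusted p = 4.68e-06) and P2rx7 lower (log2 difference -0.78 ± 0.09). The alpha 1 receptors split, Adra1a at 41, 24 and 58 in bladder and 774, 539 and 493 in intestine (log2 difference 3.90 ± 0.32 (SE), adjusted p = 1.36e-05) and Adra1b at 326, 368 and 269 in bladder and 53, 30 and 58 in intestine (log2 difference -2.79 ± 0.28 (SE), adjusted p = 4.29e-05). The groups of each of these receptors were apart. The muscarinic receptors Chrm2 and Chrm3, added after their values were seen, were higher (log2 differences 2.29 ± 0.29 and 3.80 ± 0.72), from low values of 32, 19 and 23 and 5, 1 and 16 in bladder.

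Peptide receptors included related genes that differed in opposite directions. Of 44 genes tested, 25 were higher and 8 lower (median log2 difference 1.44). Vipr2 and Vipr1, the receptors of vasoactive intestinal peptide, was at 96, 131 and 103 in bladder and 1038, 1027 and 1029 in intestine and 52, 61 and 49 in bladder and 597, 643 and 514 in intestine (3.23 ± 0.14 and 3.41 ± 0.17). Adcyap1r1, the receptor that prefers the related peptide PACAP, stood at 3586, 3886 and 3461 in bladder and 1034, 1442 and 1288 in intestine (log2 difference -1.55 ± 0.11 (SE), adjusted p = 6.51e-06). The same family thus held 2 members about an order of magnitude higher and 1 member lower by about 3-fold. Glp1r, the receptor of glucagon-like peptide 1, had counts of 14, 26 and 21 in bladder and 4688, 4086 and 3808 in intestine (log2 difference 7.66 ± 0.21 (SE), adjusted p = 6.3e-08), and Ednra, an endothelin receptor, 615, 554 and 612 in bladder and 3188, 2932 and 2886 in intestine (log2 difference 2.34 ± 0.07 (SE), adjusted p = 8.28e-08). Agtr2, the type 2 angiotensin receptor, was at 963, 1168 and 923 in bladder and 0, 0 and 17 in intestine, with 2 of 3 intestine libraries at 0 (log2 difference -8.60 ± 1.00 (SE), adjusted p = 9.91e-05). Npy1r and Npr2, receptors of neuropeptide Y and of C-type natriuretic peptide, were lower (log2 differences -0.95 ± 0.08 and -1.46 ± 0.09). Vip itself, a neuronal transcript, was at 0 in all bladder libraries and at 1436, 1604 and 1744 in intestine.

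Lipid mediator genes also divided by subtype. Of 43 genes tested, 20 were higher and 13 lower (median log2 difference 0.57), and quantile normalization gave 16 higher and 16 lower. S1pr3, the sphingosine-1-phosphate receptor of smooth muscle, was at 715, 683 and 659 in bladder and 5481, 5021 and 5266 in intestine (log2 difference 2.94 ± 0.06 (SE), adjusted p = 4.17e-08). S1pr2 stood at 3588, 3654 and 3366 in bladder and 951, 962 and 900 in intestine (log2 difference -1.91 ± 0.06 (SE), adjusted p = 8.7e-08). These receptors of 1 ligand changed places, since S1pr2 was higher in all bladder and S1pr3 in all intestine libraries. In reads per kilobase of exon S1pr3 had 128 against 369 for S1pr2 in bladder, and 1288 against 129 in intestine, so their order within a tissue was reversed. S1pr1, also an endothelial gene, was higher (log2 difference 1.60 ± 0.18). Ptges, which makes prostaglandin E2, had counts of 4333, 4656 and 4459 in bladder and 768, 879 and 821 in intestine (log2 difference -2.45 ± 0.06 (SE), adjusted p = 6.04e-08), and its receptor Ptger4 1706, 1732 and 1524 in bladder and 676, 948 and 964 in intestine (log2 difference -0.95 ± 0.13 (SE), adjusted p = 0.000316). Ptger3 was higher with a log2 difference of 0.57 ± 0.21 (adjusted p = 0.0463), a call that was lost without any 1 of bladder replicates 2 and 3 and intestine replicates 1, 2 and 3 (adjusted p = 0.104 to 0.137). Ptger1 and Ptger2 were not called (0.75 ± 0.37 and 0.04 ± 0.23). Lpar1, a lysophosphatidic acid receptor, was lower (log2 difference -1.16 ± 0.06 (SE), adjusted p = 8.99e-07). Htr3a, a serotonin-gated channel known from neurons, was at 0 in all bladder libraries and at 413, 501 and 445 in intestine (at least 125-fold higher).

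The relaxing pathways through cyclic nucleotides were higher in intestine at most steps. Of the 30 genes tested, 22 were higher and 4 lower (median log2 difference 1.26), against 32.0% higher and 27.3% lower among all genes. Gucy1b1, a subunit of the nitric oxide receptor, was at 1189, 1131 and 995 in bladder and 2867, 2644 and 2745 in intestine (log2 difference 1.32 ± 0.08 (SE), adjusted p = 1.67e-06). Prkg1, the cGMP-dependent kinase of smooth muscle, added after its values were seen, stood at 146, 179 and 82 in bladder and 1037, 1033 and 977 in intestine (log2 difference 2.97 ± 0.25 (SE), adjusted p = 1.51e-05). Prkg2 was higher too (log2 difference 2.53 ± 0.13 (SE), adjusted p = 1.14e-06). Receptor subunit and both kinases were thus higher in each intestine library. Adenylyl cyclases, which make cAMP, split by isoform. Adcy5 had counts of 236, 198 and 259 in bladder and 3048, 3086 and 2703 in intestine (log2 difference 3.67 ± 0.11 (SE), adjusted p = 8.28e-08), Adcy6 and Adcy9 were higher (log2 differences 2.34 ± 0.18 and 1.72 ± 0.16), and Adcy7 was lower at 2411, 2902 and 2658 in bladder and 1518, 1834 and 1698 in intestine (log2 difference -0.66 ± 0.09 (SE), adjusted p = 0.000264), a call that was lost with the scaling undone (adjusted p = 0.0793). The regulatory subunit Prkar1a of the cAMP kinase was not called (log2 difference -0.13 ± 0.06 (SE), adjusted p = 0.0956), and Prkar2b was higher (log2 difference 2.06 ± 0.09 (SE), adjusted p = 4.42e-07).

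Phosphodiesterases, which break cAMP and cGMP down, were evenly divided, 7 higher and 7 lower of 18. Pde3a was at 836, 686 and 899 in bladder and 4283, 3908 and 3503 in intestine (log2 difference 2.27 ± 0.11 (SE), adjusted p = 7.5e-07). Pde3b stood at 1587, 1609 and 1279 in bladder and 322, 260 and 297 in intestine (log2 difference -2.34 ± 0.12 (SE), adjusted p = 8.99e-07). The PDE3 pair therefore exchanged places at about 5-fold in each direction. In reads per kilobase of exon Pde3a had 53 against 135 for Pde3b in bladder, and 335 against 35.1 in intestine. Within PDE1 the gene Pde1b was higher (log2 difference 1.37 ± 0.07 (SE), adjusted p = 9.66e-07), Pde1c rose from 0, 6 and 0 to 75, 94 and 101, and Pde1a was lower (log2 difference -0.36 ± 0.09), which turned to 0.038 with the scaling undone. Within PDE4 the gene Pde4b was higher (log2 difference 0.48 ± 0.07), Pde4c by 4.57 ± 0.47, Pde4a was lower (log2 difference -1.02 ± 0.09), and Pde4d was not called (-0.37 ± 0.15). RGS proteins shorten G protein signals, and of 50 genes tested, 13 were higher and 19 lower (median log2 difference -0.05), which turned to 26 higher and 8 lower with the scaling undone. Rgs4 and Rgs5, both on the mural cell list, had counts of 359, 302 and 363 in bladder and 4668, 3870 and 4190 in intestine and 260, 275 and 345 in bladder and 4420, 4081 and 4107 in intestine (3.63 ± 0.10 and 3.85 ± 0.11), and Gng8 was lower (log2 difference -2.56 ± 0.16 (SE), adjusted p = 2.4e-06).

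Of 66 families fixed for paralogue comparison, 24 had a member that was higher and another that was lower, each at a mean of at least 100 in its higher tissue. Besides those above they took in laminin alpha chains, thrombospondins, BMP ligands, secreted frizzled-related proteins, class 3 semaphorins, GATA and T-box factors, neurotrophins, insulin-like growth factor binding proteins and cadherins.

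**Figure D4:**
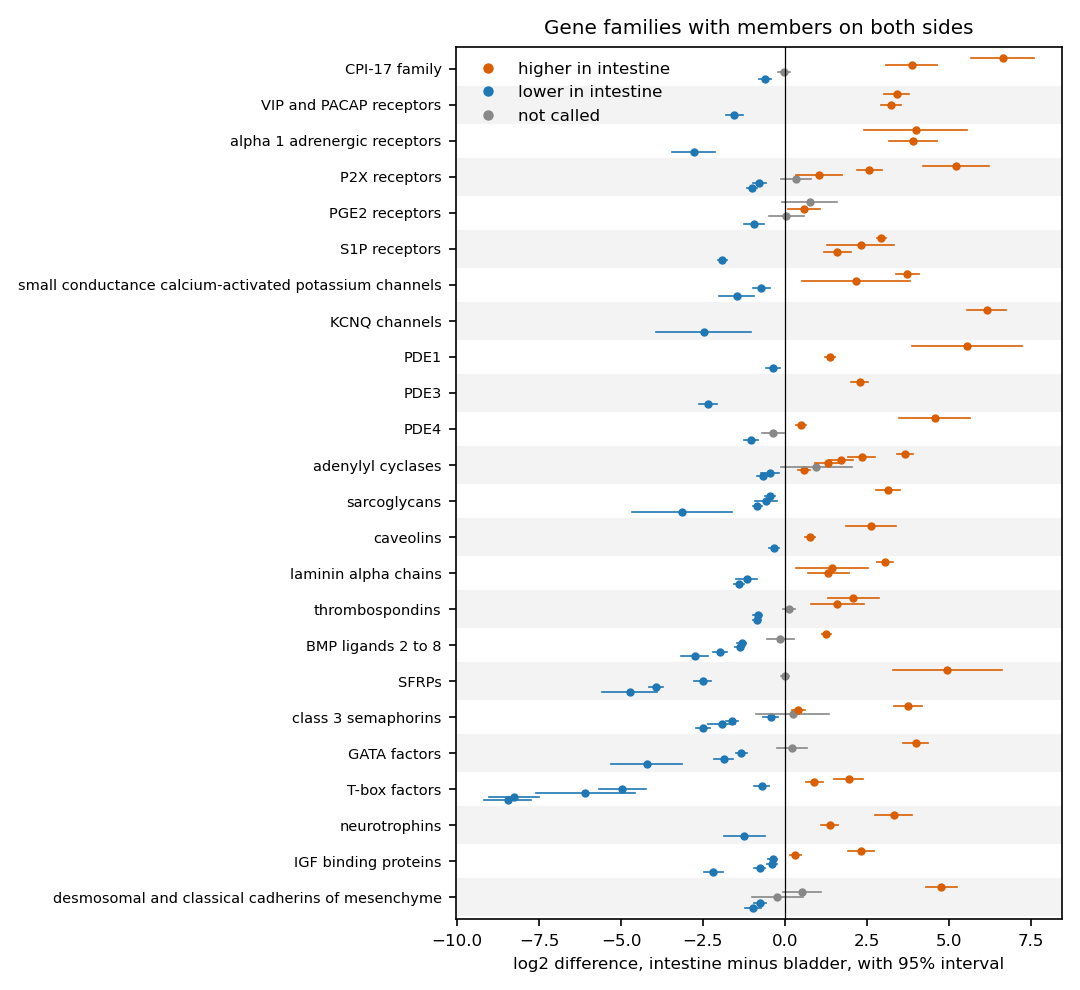
Each row is 1 of the 24 families with members on both sides, and each point is 1 tested member with its log2 difference, intestine minus bladder, and 95% interval. Orange members were higher, blue lower and grey not called. The widest spans among these 24 are those of the T-box factors, which reach -8.46 for Tbx5, and of the secreted frizzled-related proteins (SFRPs), which run from -4.73 for Sfrp2 to 4.95 for Sfrp5.

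The NOTCH genes named below were higher and the hedgehog genes named below lower, but the pathways were not counted apart. Of the 37 genes tested on the list that joins these pathways 17 were higher and 14 lower, 11 and 0 of them by at least 4-fold. Notch3, the NOTCH receptor of mural cells, was at 273, 273 and 347 in bladder and 4830, 4612 and 4636 in intestine (log2 difference 3.98 ± 0.10 (SE), adjusted p = 4.98e-08), the ligand gene Jag1 233, 225 and 314 in bladder and 2672, 2895 and 2388 in intestine (log2 difference 3.37 ± 0.13 (SE), adjusted p = 3.09e-07) and the target gene Hey2 65, 71 and 94 in bladder and 906, 835 and 833 in intestine (log2 difference 3.48 ± 0.16 (SE), adjusted p = 5.78e-07). All 3 were about an order of magnitude higher, alongside the mural and endothelial markers. Hedgehog co-receptors were lower, Boc at 4182, 4122 and 3895 in bladder and 1343, 1521 and 1305 in intestine (log2 difference -1.55 ± 0.07 (SE), adjusted p = 4.88e-07) and Gas1 by -1.24 ± 0.07. Scube1, a secreted protein of the same list, stood at 3864, 4273 and 4118 in bladder and 965, 1312 and 1376 in intestine (log2 difference -1.76 ± 0.12 (SE), adjusted p = 5.09e-06). The target gene Gli1, added after its values were seen, had counts of 1064, 1032 and 1183 in bladder and 326, 426 and 421 in intestine (log2 difference -1.49 ± 0.12 (SE), adjusted p = 1.06e-05). The letters GTGGGAA, which the NOTCH partner RBPJ is known to bind, were in 4 of 36 promoter windows of this list (11.1%) and in 2097 of 32851 windows of all genes (6.38%), on either strand. Hey2 carries them more than once, and its window (GRCm38.p6 chr10:30842734-30843033, minus strand) is shown with each match in capitals.
Hey2: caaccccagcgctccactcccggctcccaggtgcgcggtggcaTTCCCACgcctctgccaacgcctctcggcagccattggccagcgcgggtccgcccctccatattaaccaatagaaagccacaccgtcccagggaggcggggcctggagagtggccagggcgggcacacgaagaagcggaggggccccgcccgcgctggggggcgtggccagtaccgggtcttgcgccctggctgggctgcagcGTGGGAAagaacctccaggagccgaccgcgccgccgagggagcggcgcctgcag
No CArG box was found in this window, and the letters of the motifs do not overlap in any window printed.

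Several WNT ligands were lower and secreted modulators changed in both directions, although the list of ligands, receptors and R-spondins was even. Of 38 genes tested, 17 were higher and 16 lower (median log2 difference 0.14), which was 11 higher and 15 lower after quantile normalization. Wnt2 was at 3058, 3019 and 2988 in bladder and 296, 318 and 336 in intestine (log2 difference -3.25 ± 0.07 (SE), adjusted p = 4.17e-08), Wnt4 1244, 1218 and 1517 in bladder and 240, 217 and 196 in intestine (log2 difference -2.60 ± 0.12 (SE), adjusted p = 5.39e-07) and Wnt5b 2220, 2181 and 2229 in bladder and 349, 436 and 497 in intestine (log2 difference -2.38 ± 0.12 (SE), adjusted p = 8.29e-07). Wnt9a and Wnt11 were lower (log2 differences -2.17 ± 0.07 and -1.93 ± 0.08). In all 5 the groups were apart, and fibroblast markers were higher in the same bladder libraries (11332 to 12362 against 7880 to 8550 ppm), whose part in this was not tested. Rspo2, an R-spondin that amplifies WNT signals, was at least 36.8-fold higher, at 0, 0 and 0 in bladder and 150, 122 and 127 in intestine. Of the antagonists 4 were higher and 9 lower of 15. Wif1, the WNT inhibitory factor, stood at 20, 26 and 27 in bladder and 1377, 1242 and 1298 in intestine (log2 difference 5.70 ± 0.17 (SE), adjusted p = 8.33e-08), and Sfrp4 1833, 1823 and 1765 in bladder and 120, 122 and 110 in intestine (log2 difference -3.93 ± 0.09 (SE), adjusted p = 4.29e-08). Sfrp2 and Frzb were lower (log2 differences -4.73 ± 0.37 and -2.51 ± 0.11) and Sfrp5 was higher (log2 difference 4.95 ± 0.72). Sfrp1 was not called, at 6331, 6267 and 5826 in bladder and 6044, 6060 and 6435 in intestine (log2 difference 0.01 ± 0.05 (SE), adjusted p = 0.887).

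BMP ligands and their antagonists changed in both directions. Of the 22 ligands and latent binders tested 6 were higher and 10 lower, against 9 higher and 7 lower with the scaling undone. Bmp3, Bmp4, Bmp5 and Bmp6 were lower (log2 differences -2.76 ± 0.17, -1.32 ± 0.06, -1.98 ± 0.10 and -1.38 ± 0.06). Bmp2 alone of the BMP ligands called was higher, at 1043, 1046 and 1174 in bladder and 2590, 2538 and 2713 in intestine (log2 difference 1.27 ± 0.07 (SE), adjusted p = 9.87e-07), and Bmp7 was not called. Among antagonists Grem1, gremlin, had counts of 1, 9 and 19 in bladder and 1947, 2228 and 2256 in intestine (log2 difference 8.18 ± 0.70 (SE), adjusted p = 1.7e-05), whereas follistatin, Fst, was at 608, 614 and 662 in bladder and 109, 109 and 119 in intestine (log2 difference -2.47 ± 0.12 (SE), adjusted p = 7.22e-07) and chordin, Chrd, 1653, 2059 and 1757 in bladder and 711, 789 and 718 in intestine (log2 difference -1.30 ± 0.09 (SE), adjusted p = 5.25e-06). Grem1 is also on the fibroblast list. Other growth factor genes split as well. Kitl, the ligand of the KIT receptor that interstitial cells of Cajal need, stood at 245, 205 and 176 in bladder and 1658, 1700 and 1632 in intestine (log2 difference 3.00 ± 0.12 (SE), adjusted p = 3.09e-07), and Pdgfd, a PDGF ligand, 3333, 3412 and 3110 in bladder and 809, 980 and 844 in intestine (log2 difference -1.91 ± 0.08 (SE), adjusted p = 3.97e-07). Fgf7 and Fgf9 were lower (log2 differences -1.90 ± 0.10 and -2.16 ± 0.12). Igfbp5 had counts of 1805, 1175 and 1045 in bladder and 6861, 6414 and 6215 in intestine (log2 difference 2.31 ± 0.17 (SE), adjusted p = 7.62e-06) and Igfbp2 1462, 1126 and 1450 in bladder and 261, 291 and 332 in intestine (log2 difference -2.18 ± 0.13 (SE), adjusted p = 2.09e-06), so that binding proteins of insulin-like growth factors changed in opposite directions.

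Factors that act on nerves were higher for the neurotrophins Bdnf and Ntf3 and lower for some class 3 semaphorins. Of 58 genes tested, 29 were higher and 21 lower (median log2 difference 0.41). Bdnf, brain-derived neurotrophic factor, was at 36, 71 and 52 in bladder and 475, 535 and 546 in intestine (log2 difference 3.32 ± 0.25 (SE), adjusted p = 7.24e-06), and Ntf3, neurotrophin 3, at 294, 338 and 375 in bladder and 936, 808 and 843 in intestine (log2 difference 1.36 ± 0.11 (SE), adjusted p = 1.29e-05). Both were higher without overlap, and Ntf5 was lower (log2 difference -1.24 ± 0.28). Gdnf, which enteric neurons require, was added after its values were seen and rose from 5, 9 and 3 to 153, 96 and 86. Sema3c, a class 3 semaphorin, stood at 7844, 7877 and 6923 in bladder and 2221, 2684 and 2502 in intestine (log2 difference -1.61 ± 0.08 (SE), adjusted p = 8.47e-07), Sema3d 2771, 3040 and 2453 in bladder and 520, 489 and 449 in intestine (log2 difference -2.50 ± 0.09 (SE), adjusted p = 2.36e-07), and Sema3g 36, 31 and 31 in bladder and 450, 408 and 492 in intestine (log2 difference 3.74 ± 0.19 (SE), adjusted p = 8.76e-07). Slit3, a ligand of ROBO receptors, and the ephrin receptor gene Epha3 were lower (log2 differences -0.86 ± 0.05 and -2.01 ± 0.10).

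Adhesion molecules of the contactin and cadherin families included the gene of the largest negative log2 difference among those with a mean of at least 300 in bladder. Of the 51 genes tested, 20 were higher and 16 lower (median log2 difference 0.41), against 17 higher and 21 lower after quantile normalization. Cntn4, a contactin known from axons (mm39 chr6:105654621-106676271), had counts of 2958, 3270 and 2655 in bladder and 0, 0 and 0 in intestine and was at least 1078-fold lower in intestine (fitted log2 difference -11.53 ± 0.25 (SE), adjusted p = 4.17e-08). Cntn6 was at 874, 778 and 875 in bladder and 2, 7 and 0 in intestine (log2 difference -8.19 ± 0.65 (SE), adjusted p = 1.07e-05). These contactins were abundant in every bladder library and at or near 0 in every intestine library. Cdh6 stood at 55, 33 and 49 in bladder and 1405, 1229 and 1108 in intestine (log2 difference 4.77 ± 0.20 (SE), adjusted p = 4.23e-07) and Cdh11, the cadherin of mesenchyme, 3455, 3522 and 3111 in bladder and 1435, 1939 and 1820 in intestine (log2 difference -0.97 ± 0.11 (SE), adjusted p = 8.31e-05). Pcdh18, a protocadherin, was lower (log2 difference -1.69 ± 0.10 (SE), adjusted p = 2.59e-06), and Ncam1, a neural cell adhesion molecule, was higher (log2 difference 2.68 ± 0.12 (SE), adjusted p = 5.68e-07).

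HOX genes divided by paralogue group. Groups 1 to 5 had 11 genes tested, each of them higher in intestine, with a median log2 difference of 4.64, while groups 9 to 13 had 11, each of them lower, with a median of -5.66 as fitted and -4.86 with the 6 genes at 0 in all intestine libraries set to their bound. Groups 6 to 8 held the change of sign, with Hoxb6, Hoxc6 and Hoxb7 higher, Hoxa7 and Hoxd8 lower and Hoxa6 not called (log2 difference 1.10 ± 0.44 (SE), adjusted p = 0.0602). Hoxb5 had counts of 10, 5 and 12 in bladder and 463, 545 and 534 in intestine (log2 difference 5.76 ± 0.33 (SE), adjusted p = 1.63e-06), and Hoxa5 36, 31 and 53 in bladder and 508, 462 and 472 in intestine (log2 difference 3.59 ± 0.23 (SE), adjusted p = 2.96e-06). Hoxa7, 2 groups on in the same cluster, was at 320, 268 and 328 in bladder and 136, 123 and 145 in intestine (log2 difference -1.17 ± 0.15 (SE), adjusted p = 0.000213). Within the Hoxa cluster the sign thus turned between Hoxa5 and Hoxa7. Hoxa10 stood at 1716, 1619 and 1802 in bladder and 6, 23 and 1 in intestine, Hoxa11 1171, 1124 and 1212 in bladder and 0, 0 and 0 in intestine and Hoxa13 1098, 1025 and 1091 in bladder and 1, 0 and 0 in intestine. Hoxa11 (mm39 chr6:52219086-52222790) was at least 426-fold lower in intestine. Its antisense partner Hoxa11os had counts of 523, 499 and 517 in bladder and 0, 0 and 0 in intestine, and since the library kit does not mark strand, reads of the pair cannot be told apart. Hoxd9 had the smallest difference of groups 9 to 13, at 218, 259 and 271 in bladder and 41, 109 and 91 in intestine (log2 difference -1.73 ± 0.34 (SE), adjusted p = 0.00241).

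**Figure D5:**
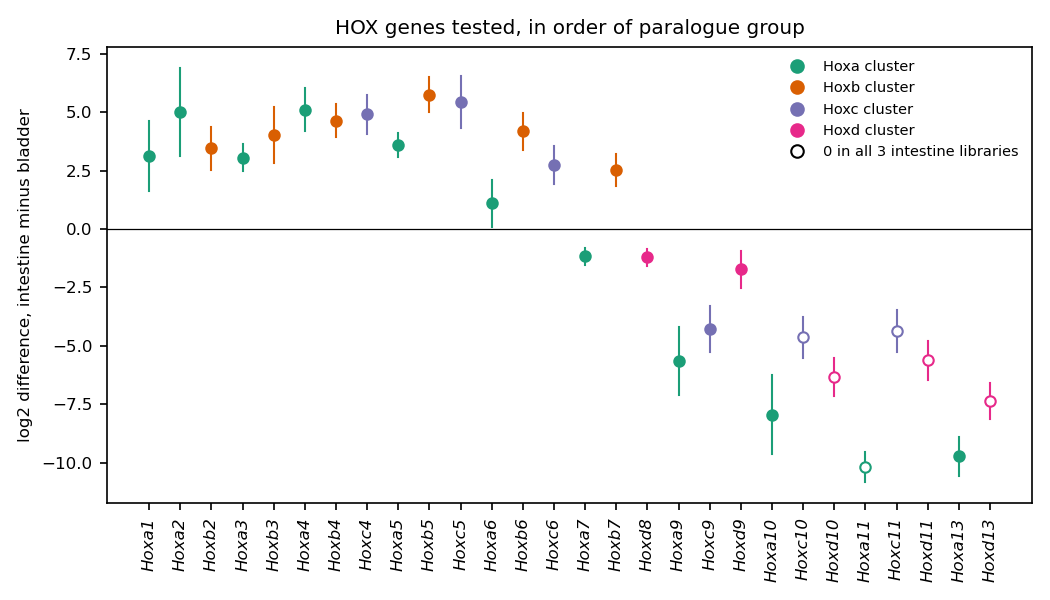
Log2 difference, intestine minus bladder, with its 95% interval for the 28 HOX genes tested, ordered by paralogue group and coloured by cluster, with open symbols for genes at 0 in all 3 intestine libraries. Every gene of groups 1 to 5 lies above 0 and every gene of groups 9 to 13 below 0.

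Other transcription factors of visceral mesenchyme also separated the tissues. Of the 26 gut mesenchyme factors tested 11 were higher and 12 lower, so the name of the list did not give its direction, while 22 of 30 urogenital factors were lower and 4 higher. Nkx2-3, a homeobox factor of midgut mesenchyme (mm39 chr19:43600764-43604331), was at 0, 5 and 0 in bladder and 2808, 2644 and 2799 in intestine (log2 difference 10.56 ± 0.64 (SE), adjusted p = 2.21e-06), and Barx1, of stomach mesenchyme, 1, 1 and 2 in bladder and 262, 206 and 303 in intestine (log2 difference 6.80 ± 0.35 (SE), adjusted p = 9.73e-07). GATA factors split, Gata4 at 61, 95 and 68 in bladder and 1153, 1226 and 1150 in intestine (log2 difference 3.98 ± 0.17 (SE), adjusted p = 4.12e-07) and Gata6 at 1977, 2089 and 1927 in bladder and 744, 781 and 861 in intestine (log2 difference -1.33 ± 0.07 (SE), adjusted p = 1.28e-06). Gata5 was lower (log2 difference -1.87 ± 0.13) and Gata2 was not called (0.21 ± 0.20). Gata4 was thus the GATA factor higher in intestine while 3 of its relatives, Gata3, Gata5 and Gata6, were higher in bladder. T-box factors ran from Tbx1, also a marker of lymphatic endothelium, at 180, 118 and 111 in bladder and 533, 545 and 469 in intestine (log2 difference 1.94 ± 0.19 (SE), adjusted p = 4.06e-05), through Tbx2, at 2087, 1880 and 2553 in bladder and 4465, 3648 and 3955 in intestine (log2 difference 0.89 ± 0.12 (SE), adjusted p = 0.000194), and Tbx3, at 2458, 2174 and 2453 in bladder and 1680, 1325 and 1348 in intestine (log2 difference -0.71 ± 0.10 (SE), adjusted p = 0.000306), to Tbx5 and Tbx18, which were at 0 in all intestine libraries and at 358, 364 and 333 and 257, 348 and 319 in bladder. Tbx4 stood at 1299, 1325 and 1292 in bladder and 73, 35 and 27 in intestine (log2 difference -4.96 ± 0.32 (SE), adjusted p = 3.01e-06). Pitx1, a homeobox factor of hind structures, was lower (log2 difference -2.48 ± 0.11), and Osr1, of early urogenital mesenchyme, had counts of 3834, 3976 and 3636 in bladder and 802, 909 and 869 in intestine (log2 difference -2.15 ± 0.07 (SE), adjusted p = 9.36e-08). Sox9, also an epithelial gene, and Foxc1 were higher (log2 differences 2.83 ± 0.11 and 1.69 ± 0.10), and Klf4 was lower (log2 difference -0.91 ± 0.06).

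Matrix genes were more often lower than higher in intestine, a balance that depends on the scaling. Lower genes made up 22 of 41 collagen chains, 15 of 27 laminin and basement membrane genes, 19 of 22 elastic fibre genes, 30 of 52 proteoglycan and matricellular genes and 25 of 46 proteases and inhibitors. With the scaling undone the collagens were 15 higher and 14 lower and the laminins 11 higher and 10 lower, so those 2 balances did not hold. The others narrowed. Proteoglycan and matricellular genes were then 18 higher and 20 lower, close to even, proteases and inhibitors 14 and 19, and elastic fibre genes 3 and 14. The fibroblast marker sums were higher in bladder too (11332 to 12362 against 7880 to 8550 ppm), and their part in the matrix differences was not tested. The main fibrillar collagens Col1a1, Col1a2 and Col3a1, added after their values were seen, were lower (log2 differences -0.53 ± 0.06, -0.54 ± 0.06 and -0.51 ± 0.07), close to the -0.40 of the densest genes. Larger changes lay in minor chains. Col15a1, of the muscle basement membrane, was at 4677, 5381 and 4811 in bladder and 747, 997 and 1082 in intestine (log2 difference -2.41 ± 0.13 (SE), adjusted p = 1.16e-06), Col4a5 4580, 4668 and 4260 in bladder and 1818, 1814 and 1816 in intestine (log2 difference -1.31 ± 0.05 (SE), adjusted p = 3.03e-07), and Col19a1 41, 20 and 27 in bladder and 1165, 1149 and 1022 in intestine (log2 difference 5.25 ± 0.25 (SE), adjusted p = 6.62e-07). Col11a2 and Col13a1 were higher (log2 differences 5.61 ± 0.24 and 3.45 ± 0.16). Laminin alpha chains differed in opposite directions between the tissues. Lama5 stood at 190, 220 and 185 in bladder and 1504, 1864 and 1593 in intestine (log2 difference 3.05 ± 0.11 (SE), adjusted p = 2.24e-07), Lama4 9535, 9714 and 8514 in bladder and 3366, 3739 and 3394 in intestine (log2 difference -1.40 ± 0.07 (SE), adjusted p = 6.49e-07) and Lama2 4300, 4433 and 4196 in bladder and 1558, 2435 and 1876 in intestine (log2 difference -1.16 ± 0.14 (SE), adjusted p = 0.000111). The alpha 5 chain was thus higher in intestine and the alpha 2 and alpha 4 chains in bladder, beside Itga7 and Npnt (2.39 ± 0.12), whose products bind laminin and integrin alpha 8.

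Among the remaining matrix genes the changes were large in few. Hmcn2, hemicentin 2, had counts of 162, 151 and 119 in bladder and 2971, 3842 and 3927 in intestine (log2 difference 4.63 ± 0.14 (SE), adjusted p = 1.09e-07), and Chad, chondroadherin, 65, 51 and 75 in bladder and 2259, 1975 and 2108 in intestine (log2 difference 5.05 ± 0.15 (SE), adjusted p = 8.28e-08). Emilin2, an elastic fibre glycoprotein, was at 3356, 3480 and 3253 in bladder and 541, 657 and 620 in intestine (log2 difference -2.47 ± 0.08 (SE), adjusted p = 1.25e-07), and Vcan, versican, 2801, 2534 and 2413 in bladder and 396, 545 and 466 in intestine (log2 difference -2.47 ± 0.12 (SE), adjusted p = 6.31e-07). Podn and Gpc6, proteoglycans, were lower (log2 differences -1.85 ± 0.05 and -2.70 ± 0.13). The groups of all of these were apart. Lox and Loxl1, which cross-link collagen and elastin, were lower (log2 differences -0.97 ± 0.07 and -0.99 ± 0.07). Thrombospondins split, with Thbs4 higher (log2 difference 2.09 ± 0.34), Thbs2 and Thbs3 lower (log2 differences -0.84 ± 0.06 and -0.84 ± 0.06), and Thbs1 not called (0.12 ± 0.08). Of the proteases, Adamts8 was higher (log2 difference 2.18 ± 0.09 (SE), adjusted p = 3.86e-07) and Ctsk, cathepsin K, was lower (log2 difference -1.22 ± 0.07 (SE), adjusted p = 1.55e-06).

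Metabolic lists held genes of both directions. Slc2a4, the insulin-sensitive glucose carrier of muscle and fat, stood at 365, 317 and 356 in bladder and 2775, 2414 and 2299 in intestine (log2 difference 2.85 ± 0.09 (SE), adjusted p = 1.32e-07), and Pygm, muscle glycogen phosphorylase, 592, 637 and 606 in bladder and 2268, 2015 and 2088 in intestine (log2 difference 1.79 ± 0.07 (SE), adjusted p = 2.64e-07). Both were higher without overlap, while Gatm, which makes the precursor of creatine, had counts of 799, 700 and 916 in bladder and 104, 162 and 130 in intestine (log2 difference -2.61 ± 0.18 (SE), adjusted p = 4.49e-06). Of the creatine, glycogen and glucose list 18 were higher and 14 lower of 44. Scd1, a fatty acid desaturase, was at 4514, 4141 and 3748 in bladder and 222, 309 and 294 in intestine (log2 difference -3.92 ± 0.13 (SE), adjusted p = 1.38e-07). Of the fatty acid list 25 were higher and 8 lower of 48, with Fabp1 and Slc27a2, both epithelial genes, at or near 0 in bladder. Of 26 cholesterol genes 13 were higher and 5 lower, against 7 higher and 7 lower with scaling on low-density genes. Insig1, which restrains cholesterol synthesis, was lower (log2 difference -1.19 ± 0.11 (SE), adjusted p = 2.56e-05). The glutathione and xenobiotic list was 20 higher and 31 lower of 59, but 27 higher and 21 lower with the scaling undone. Aldh3a1, an aldehyde dehydrogenase known from surface epithelia, stood at 625, 696 and 1023 in bladder and 17, 23 and 16 in intestine (log2 difference -5.30 ± 0.25 (SE), adjusted p = 6.86e-07).

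Cox7a1 and Cox8b, muscle forms of cytochrome c oxidase, were higher, and so was Cox4i2, which is on the mural cell list. Cox7a1 had counts of 11, 8 and 9 in bladder and 75, 79 and 97 in intestine (log2 difference 3.04 ± 0.31 (SE), adjusted p = 4.75e-05), Cox8b 5, 8 and 3 in bladder and 72, 70 and 82 in intestine (log2 difference 3.65 ± 0.39 (SE), adjusted p = 6.1e-05) and Cox4i2 52, 31 and 55 in bladder and 558, 398 and 442 in intestine (log2 difference 3.34 ± 0.26 (SE), adjusted p = 9.08e-06). The whole list was 5 higher and 4 lower of 30, but 4 higher and 13 lower with scaling on low-density genes. Cell cycle genes were higher almost throughout, 43 of 52 with 1 lower and a median of 1.27. Mcm5, of the replicative helicase, was at 208, 169 and 175 in bladder and 735, 923 and 791 in intestine (log2 difference 2.14 ± 0.13 (SE), adjusted p = 2.22e-06), and Cdc20 219, 194 and 228 in bladder and 486, 574 and 572 in intestine (log2 difference 1.34 ± 0.12 (SE), adjusted p = 2.27e-05). Epithelial, endothelial and lymphocyte markers, among other lists, were higher in the same libraries, and their part in the cell cycle genes was not tested. Immediate early and heat shock genes, which respond to tissue dissociation, were 8 higher and 24 lower of 42, but 17 higher and 5 lower with the scaling undone, and 14 of them were genes of at least 1 read per nucleotide. Hspb7 and Hspb2, small heat shock proteins of muscle, were higher (log2 differences 2.30 ± 0.15 and 2.56 ± 0.21). Clock genes also differed, Npas2 at 2633, 2942 and 2511 in bladder and 501, 380 and 531 in intestine (log2 difference -2.53 ± 0.13 (SE), adjusted p = 8.38e-07) and Arntl at 1620, 1832 and 1634 in bladder and 780, 382 and 415 in intestine (log2 difference -1.76 ± 0.24 (SE), adjusted p = 0.000241), against Dbp at 937, 862 and 1141 in bladder and 1546, 1688 and 1807 in intestine (log2 difference 0.78 ± 0.11 (SE), adjusted p = 0.000289). The hour of collection of a library is not in the labels.

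Chemokines and nuclear receptors completed the signalling genes. Of 42 genes tested, 17 were higher and 15 lower (median log2 difference 0.10), and quantile normalization gave 14 higher and 18 lower. Cxcl14 stood at 3610, 3550 and 3351 in bladder and 194, 234 and 245 in intestine (log2 difference -3.97 ± 0.10 (SE), adjusted p = 4.79e-08) and Cxcl12 5800, 5742 and 5182 in bladder and 3128, 3131 and 3180 in intestine (log2 difference -0.82 ± 0.05 (SE), adjusted p = 3.82e-06), both known from fibroblasts. Ccl25, known from small intestinal epithelium, had counts of 75, 101 and 83 in bladder and 780, 796 and 905 in intestine (log2 difference 3.25 ± 0.15 (SE), adjusted p = 5.5e-07). Of the 49 retinoid, vitamin D and steroid receptor genes 19 were higher and 17 lower. Pparg, also a urothelial gene, was lower (log2 difference -2.17 ± 0.10). Rarg, a retinoic acid receptor, was lower (log2 difference -1.70 ± 0.07 (SE), adjusted p = 4.24e-07), and Vdr, the vitamin D receptor, which intestinal epithelium also uses, rose from 16, 5 and 29 to 2145, 2703 and 2311.

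Some genes differed little or not at all. For 1341 of the 16766 genes tested the 95% interval of the log2 difference lay within -0.3 to 0.3. This set is not free of calls, since Dag1, Clic4 and Msn in it were called lower. The most abundant of them that were not called, besides Atp2a2, Sfrp1 and Prkar1a, were Adamts1 (-0.08 ± 0.06), Actn4, a non-muscle alpha-actinin (-0.07 ± 0.05), Tnc, tenascin C (-0.09 ± 0.07), and Ogdh, of the citric acid cycle (0.07 ± 0.05). Such calls turn on the scaling. Atp2a2, Sfrp1 and Ogdh were called higher with the scaling undone (log2 0.48, 0.40 and 0.47), and Adamts1, Actn4, Tnc and Prkar1a lower with scaling on low-density genes (log2 -0.23, -0.22, -0.24 and -0.28). By contrast 357 tested genes were at 0 in every bladder library and 57 in every intestine library, of which 159 and 11 had a mean of at least 100 in the other tissue. Among the most abundant of the first in intestine were Clca3b (at least 862-fold higher), Fcgbp (at least 781-fold higher) and Chgb (at least 718-fold higher), all known from gut epithelium. Among the second were Cntn4 and Hoxa11, Retnla, a macrophage gene (at least 279-fold lower), Ivl and Krt5 of stratified epithelium (at least 228-fold lower and at least 119.9-fold lower) and Crhbp, a binding protein of corticotropin-releasing hormone (at least 80.2-fold lower). The bounds set the 0 libraries at 3 reads each and cover counting error only.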

How the data were processed

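RNA sequencing of sorted cells gave 1 table of 21649 genes with a column for each of 8 libraries, of which the 3 bladder and 3 intestine columns were used. Per the submitters' processing notes, reads were handled with Trimmomatic 0.39, STAR 2.7.10a, Picard 3.0.0, featureCounts 2.0.4 and DESeq2 1.36.0 on the mm39 build. The deposited values are a score, whole numbers spaced like read counts divided by a factor per library. How the authors made them is not given in the sources used here. To set the scale, the value of 1 read was estimated from the spacing of small values and ran from 1.10 to 1.27 in bladder and 0.869 to 0.958 in intestine.

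Values were tested as log2(value + 1) with limma 3.58.1 in R 4.3.3 with an intensity trend, on the 6 libraries, for genes at 10 or more in at least 3 of them, with Benjamini-Hochberg adjustment over all 16766 tested and a threshold of 0.05. The script was tested on simulated data. Where a group was at 0, folds were bounded with 3 reads per library. Read density used GENCODE M21 exon lengths, matched for 96.8% of gene IDs.

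Lists, families and the comparison itself were chosen with earlier results of these data known. Named genes are the driver genes, the largest differences, and up to 6 members of smallest adjusted p and 3 counterexamples per list. They also include members of split families, the most abundant genes with an interval within -0.3 to 0.3 and those at 0 in 1 tissue. Outside that rule and after their values were seen, Actg2, Cacna1c, Chrm2, Chrm3, Cnn1, Cnn2, Col1a1, Col1a2, Col3a1, Fhl2, Gdnf, Gli1, Kcnma1, Ldb3, Prkg1, Trpc6, Vdr and the pancreatic enzymes were added. Some genes that the rule takes in are not reported here. The alternatives tried were other scalings, pseudocount, filter, samples, voom, a replicate block and leaving out each library. The scaling on low-density genes was chosen after seeing the data.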

Additional observations from a re-analysis of the deposited data

How the results depend on the processing

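With the deposited scaling undone 8469 genes were higher and 2015 lower, and 116 of the calls changed direction. Quantile normalization gave 4498 higher and 5925 lower with 48 changed in direction, and scaling on genes of low read density, chosen after seeing the data, gave 4537 and 5870 with none changed. Equal totals gave 6045 and 3889, and voom on reconstructed reads 6041 and 3914. The number of genes lower by at least 4-fold was 366 with a pseudocount of 10 and 983 after quantile normalization. Leaving out each library in turn gave 4818 to 5173 higher and 4042 to 4311 lower. Of the 258 genes with values in the text, 7 that were called changed sign with the scaling undone, Actg2 to 0.18, Cav1 to 0.064, Cnn1 to 0.17, Cnn2 to 0.22, Fhl1 to 0.035, Itgb1 to 0.11 and Pde1a to 0.038. After quantile normalization Actg2 (0.032), Cav1 (0.030), Cnn1 (0.040), Cnn2 (0.099) and Itgb1 (0.12) did so. The cause was not tested. Calls of Adcy7, Kcnn3, Ppp1r14b, Sgcb and Sgcd were lost with the scaling undone, those of Fhl2 and Ptger3 with scaling on low-density genes, those of Col3a1, Fhl1, Pde1a and Ptger3 after quantile normalization, those of Actg2, Cnn1 and Cnn2 with equal totals and with voom, and that of Ptger3 with all 8 libraries. Hoxa6 was called without bladder replicate 2, Gata2 and Prkar1a without bladder replicate 3, and Pde4d without intestine replicate 3. Deviations of libraries with the same replicate number correlated at -0.023, 0.0012 and -0.0096. With 3 libraries per tissue and no mouse named, these values cannot settle whether the numbers pair the libraries. With the number as a replicate block 5272 genes were higher and 4433 lower, and no call of a gene with values in the text changed. At about 10 to 13 M reads, values under about 4 in bladder and 3 in intestine lie within 3 reads.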

Other observations

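Enzymes of the acinar pancreas, which empties into the gut, were found in the intestine libraries. The 14 genes of this list were picked after their values were seen, and all 14 were higher in intestine, with 8 at 0 in all bladder libraries. Their sum was 0.324, 0.886 and 2.00 ppm of the library total in bladder and 1388, 392 and 355 in intestine. Pnlip, pancreatic lipase, was at 2403, 734 and 678 in the intestine libraries, and Cpa1, a carboxypeptidase, at 1521, 289 and 236. Intestine replicate 1 exceeded the mean of the other intestine libraries by a ratio of 1.37 to 7.46 over the 14 genes, and 12 of them were at a ratio of at least 2. Only 31 of 12120 genes with an intestine mean of at least 100 reached that ratio, whose median was 1.00.

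Some of the largest differences fell outside every list. Car3, a carbonic anhydrase known from fat and muscle, was at 4285, 4135 and 4148 in bladder and 6, 13 and 7 in intestine (log2 difference -8.83 ± 0.25 (SE), adjusted p = 7.27e-08). Sbp, a gene of a secreted spermine-binding protein, was at 894, 571 and 545 in bladder and 2, 0 and 0 in intestine (log2 difference -8.82 ± 0.49 (SE), adjusted p = 1.45e-06). F13a1, the A subunit of clotting factor XIII, was at 1175, 598 and 480 in bladder and 6, 0 and 1 in intestine (log2 difference -8.18 ± 0.68 (SE), adjusted p = 1.41e-05), and it was highest in bladder replicate 1, where the macrophage markers were highest too. Dmbt1, a mucosal glycoprotein, was at 1, 8 and 0 in bladder and 7486, 7785 and 8000 in intestine (log2 difference 11.53 ± 0.67 (SE), adjusted p = 1.78e-06).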
